A study of Mus musculus with 6 samples.

Results

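Gene expression in mouse glioma cells grown with 10 µM SHP099 was set against the same cells at 0 µM. These data are 4 of the 6 files of the series, which are lanes 6 and 7 of 1 library of polyadenylated RNA for each dose. Per the labels, both groups are astrocytes with the genotype Ink4a/Arf-/-/PDGFRa/PDGF-A, with the cell type given as glioma cells, so the loss of Ink4a/Arf and the PDGF receptor and ligand are common to 10 and 0 µM cells and are not what is compared. The length of treatment, the promoters of the introduced genes and the number of cultures are not given in the labels. Of 53346 gene symbols in the files, 12452 had a mean over the lanes of at least 1 FPKM (fragments relative to the length of the transcript and the number mapped) in at least 1 of the 2 doses and were compared.

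SHP-2 is a tyrosine phosphatase, encoded by Ptpn11, that binds activated receptor tyrosine kinases such as the PDGF receptors and is needed for full activation of RAS. RAS switches on the kinases RAF, MEK and ERK, and ERK induces transcription factors of the AP-1 and ETS families and drives cells from G1 into S phase. SHP099 is an allosteric inhibitor that holds SHP-2 in its closed, inactive form. Alteration of PDGFRA and loss of the INK4A/ARF locus are both known from human gliomas.

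With 1 library a dose (n = 1), differences between doses have no replicate check, and no p-value is given. The 2 lanes of a library measure the error of sequencing only. A gene is called higher or lower when the mean of log2(FPKM + 1) differs by at least 1.5-fold between 10 and 0 µM and all 4 differences between a lane of 10 µM and a lane of 0 µM have the same sign. Folds are on this scale, which understates the difference of genes near or below 1 FPKM, and the range after a fold is that over the 4 lane pairs. Fragments recovered from the values came to 30820000 and 31080000 in the lanes at 10 µM, against 47200000 and 47160000 at 0 µM. A transcript of 2 kb at 1 FPKM then had 54.2 to 54.7 fragments a lane at 10 µM and 83.0 to 83.1 at 0 µM, a counting error of 13.5% to 13.6% at 10 µM and of 10.97% to 10.98% at 0 µM. The lanes of a library differed by a median of 0.06 at 10 µM and 0.05 at 0 µM on the log2 scale, against a median of 0.41 between the doses. In bulk RNA, fewer cells in a state and less RNA per cell cannot be told apart.

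The genes that the labels name came first. Ptpn11 was at 58.5 and 57.0 FPKM in the lanes at 10 µM, against 60.3 and 57.6 FPKM at 0 µM. Pdgfra was at 74.7 and 72.9 FPKM at 10 µM and at 77.3 and 72.3 FPKM at 0 µM, and Pdgfa, its ligand, at 21.99 and 20.71 FPKM against 21.00 and 21.35 FPKM. For all 3 genes the lanes of the doses overlapped. Cdkn2a, the Ink4a/Arf gene, was listed at 802.8 and 802.7 FPKM at 10 µM and at 527.4 and 544.1 FPKM at 0 µM (log2 fold 0.58, just short of 1.5-fold). The labels do not say which exons were deleted, and the files hold no value below the gene, so this level does not check the genotype.

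Of the genes compared, 1966 (15.8%) were called higher at 10 µM and 2393 (19.2%) lower, 35.0% in all, and 8093 were not called. The sum of FPKM differed between the doses, with 553504 and 552800 in the lanes at 10 µM against 643175 and 643707 at 0 µM. Scaling every file to the same sum moved the folds by about 0.22 on the log2 scale and turned the split of calls from 45.1% higher and 54.9% lower into 65.2% and 34.8%. The median log2 fold was −0.03 as deposited and 0.17 with equal sums. At the 2-fold level 733 genes (5.89%) were higher and 995 (7.99%) lower, at 4-fold 93 and 232, and at 8-fold 15 and 52. On the deposited scale, genes past the higher limits were thus more often lower than higher. Counts at these limits were not made with equal sums. Just inside the limit lay Clybl (0.59) and Ppp2r2d (−0.59), and just outside it Cd63 (0.58) and Pcnp (−0.58). Genes called higher made up 20.4% of all FPKM at 10 µM and 8.17% at 0 µM, and genes called lower 25.3% and 44.5%.

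**Figure D1:**
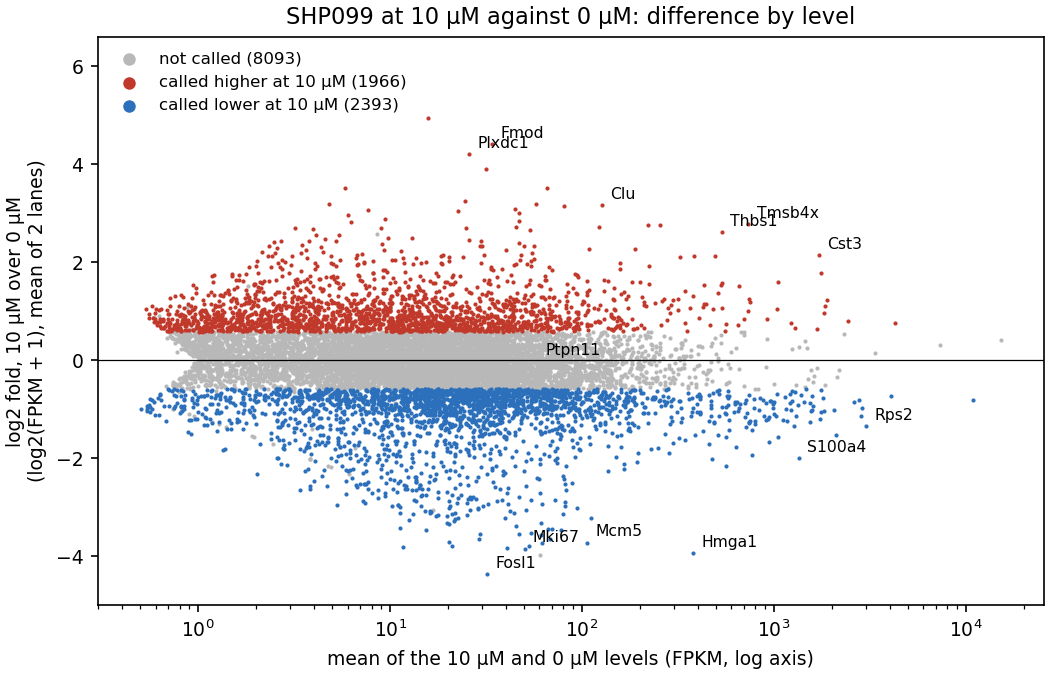
Each point is 1 of the 12452 genes, with the mean of its 10 µM and 0 µM levels in FPKM on a log axis against the log2 fold of 10 over 0 µM. Genes called lower (2393) reach −4.37 at Fosl1, genes called higher (1966) reach 4.42 at Fmod among named genes, and Ptpn11 lies near 0.

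The share of genes called in each direction went with their level. Among genes with a mean below 2 FPKM, 26.3% were higher at 10 µM and 10.6% lower, and among those at 100 FPKM or more 14.5% were higher and 33.8% lower. Of 11044 genes annotated as protein-coding, 1622 were higher and 2213 lower. Of 900 genes of the annotation types grouped here as long non-coding, 245 were higher and 100 lower (median 0.24 on the log2 scale). These types include processed transcripts, among them the chaperonin gene Cct6a, so the class also holds genes that encode proteins. With equal sums 2461 protein-coding genes were higher and 1446 lower, so their lean turned with the scaling. Malat1, an abundant nuclear long non-coding RNA, was at 618.8 and 592.0 FPKM at 10 µM, against 269.1 and 278.4 FPKM at 0 µM. Several hosts of small nucleolar RNAs lay the other way, among them Snhg1 with 39.4 and 37.7 FPKM at 10 µM against 108.6 and 111.7 FPKM at 0 µM. Malat1 and Snhg1 were chosen after their values were seen. The share called lower was 24.2% in the shortest of 4 equal bins of protein-coding genes by transcript length and 14.4% in the longest, and the share called higher was 10.1% in the lowest of 4 bins by GC content and 18.9% in the highest. The part of level, length and base composition in the results that follow was not tested.

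Among the 40 lowest folds of named genes with at least 5 FPKM at 0 µM, 24 belong to genes of mitosis and cell division and 7 to genes of DNA replication and S phase, by roles assigned after the values were seen. The remaining 9 include the 2 transcription factors with the lowest values. Fosl1 (ENSMUSG00000024912), which encodes the AP-1 subunit FRA-1, had the lowest fold of all genes compared. It was at 1.95 and 2.17 FPKM in the lanes at 10 µM and at 61.9 and 62.3 FPKM at 0 µM. Etv4, an ETS factor, was at 0.66 and 0.69 FPKM at 10 µM, against 22.6 and 22.7 FPKM at 0 µM (−3.82, −3.83 to −3.80). In both genes the lanes of a dose lay close together and far from those of the other.

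Hmga1, a chromatin protein that bends DNA at AT-rich sites, was the most abundant gene of the 40, at 45.6 FPKM in both lanes at 10 µM and at 710.7 and 714.2 FPKM at 0 µM. Receptors and a hormone followed. Il1rl1, the receptor of IL-33, was at 2.02 and 1.90 FPKM at 10 µM against 39.0 and 41.1 FPKM at 0 µM. Il18rap, a subunit of the IL-18 receptor, was at 1.71 and 2.37 FPKM against 37.3 and 39.3 FPKM. Prl2c2, which encodes proliferin, was at 6.02 and 6.36 FPKM at 10 µM and at 117.0 and 83.3 FPKM at 0 µM. The lanes of 0 µM differed more for Prl2c2 than for the other genes named here, and it has near-identical neighbours in the genome, so its level is uncertain.

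The replication genes among the 40 have roles in DNA replication and S phase. Cdc6, which loads the replicative helicase, was at 1.08 and 1.12 FPKM at 10 µM and at 21.0 and 21.8 FPKM at 0 µM. The helicase subunits Mcm5 (14.5 and 13.9 FPKM at 10 µM, 198.3 and 199.9 FPKM at 0 µM) and Mcm3 (16.0 and 14.8 FPKM against 144.3 and 144.0 FPKM) were about as far apart. Pclaf, a partner of the sliding clamp PCNA, was at 3.74 and 5.25 FPKM at 10 µM against 76.8 and 76.6 FPKM at 0 µM. Uhrf1, which brings the maintenance methyltransferase to replicated DNA, thymidine kinase Tk1 and the B-MYB gene Mybl2 had folds of −3.64, −3.38 and −3.46.

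The mitotic genes among the 40 spanned the phase from entry to abscission, with folds between −3.84 and −3.11. Mki67, the Ki-67 coat protein of mitotic chromosomes, was at 5.55 and 5.78 FPKM at 10 µM and at 95.1 and 94.0 FPKM at 0 µM. For entry into mitosis, the cyclin genes Ccnb1 (−3.57), Ccnb2 (−3.24) and Ccna2 (−3.45) and the kinase Plk1 (−3.55) were lower. For attachment of chromosomes, so were Cenpa (−3.73), the centromeric histone, the kinase Aurkb (−3.64) with its partner Birc5 (−3.44), the depolymerising kinesin Kif2c (−3.35) and the checkpoint kinase Bub1 (−3.11). For separation and cytokinesis, the same held for Cdc20 (−3.43), which activates the anaphase-promoting complex, separase Espl1 (−3.33), the midzone kinesin Kif23 (−3.28) and the abscission factor Cep55 (−3.12). Top2a, which untangles sister DNA, was at 21.2 and 20.1 FPKM at 10 µM and at 201.4 and 200.8 FPKM at 0 µM.

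Promoters of 4 of these genes are shown because they hold the motifs whose share most exceeded that over all genes compared in promoters of genes called lower. In each, 250 bases before and 50 after the transcription start are given in the direction of the gene (RefSeq, GRCm38.p6). Capitals mark the CHR element TTTGAA, bound by complexes that time late cell-cycle genes, in Mki67 (chr7:135716330-135716629, minus strand, 2 matches) and Cenpa (chr5:30666636-30666935, plus strand, 1 match):
Mki67: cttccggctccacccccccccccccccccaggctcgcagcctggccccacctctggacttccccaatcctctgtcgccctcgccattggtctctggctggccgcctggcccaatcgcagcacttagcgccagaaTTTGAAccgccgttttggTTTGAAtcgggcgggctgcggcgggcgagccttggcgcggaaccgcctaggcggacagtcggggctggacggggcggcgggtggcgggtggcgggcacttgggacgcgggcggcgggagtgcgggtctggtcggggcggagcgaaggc
Cenpa: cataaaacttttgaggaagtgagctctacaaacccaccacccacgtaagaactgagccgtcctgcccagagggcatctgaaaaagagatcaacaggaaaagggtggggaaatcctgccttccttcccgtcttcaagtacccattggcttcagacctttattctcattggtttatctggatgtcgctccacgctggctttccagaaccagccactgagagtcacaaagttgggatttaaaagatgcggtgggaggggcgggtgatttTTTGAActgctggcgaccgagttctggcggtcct
They mark the E2F motif TTCCCGC, here read on the opposite strand as GCGGGAA, in Pclaf (chr9:65890073-65890372, plus strand, 2 matches) and Cdc6 (chr11:98907901-98908200, plus strand, 1 match):
Pclaf: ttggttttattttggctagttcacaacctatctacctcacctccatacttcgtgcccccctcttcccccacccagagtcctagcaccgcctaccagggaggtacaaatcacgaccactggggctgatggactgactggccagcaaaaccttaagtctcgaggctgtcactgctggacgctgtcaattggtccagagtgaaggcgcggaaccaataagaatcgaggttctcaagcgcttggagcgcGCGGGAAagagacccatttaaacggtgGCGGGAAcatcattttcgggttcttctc
Cdc6: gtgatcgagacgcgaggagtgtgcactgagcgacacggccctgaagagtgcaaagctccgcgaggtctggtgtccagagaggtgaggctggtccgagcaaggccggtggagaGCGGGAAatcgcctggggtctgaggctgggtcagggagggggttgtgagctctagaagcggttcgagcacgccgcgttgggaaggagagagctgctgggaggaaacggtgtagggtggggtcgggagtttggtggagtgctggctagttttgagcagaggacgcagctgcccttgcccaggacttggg
The first CHR match began at −116 from the start in Mki67 and at 16 after the start in Cenpa. The first E2F match began at −5 in Pclaf and at −138 in Cdc6. Of the 30 of the 40 lowest genes with exactly 1 window, 18 held TTTGAA, 20 CCAAT, 4 TTCCCGC and 4 TTGGCGC, and the promoters shown were picked for holding the motif. A match is a run of letters in this window and not a measured binding site.

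Exactly 1 such window was at hand for 7250 of the genes compared, of which 1502 were called lower, 1020 higher and 4728 not called. TTTGAA, searched on both strands, was in 17.7% of the windows of genes called lower, 10.8% of those called higher and 9.75% of those not called. For TTCCCGC the shares were 14.2%, 6.08% and 8.50%, and for a second E2F form, TTGGCGC, 6.52%, 3.24% and 4.53%. Among genes lower at 2-fold the share was 22.3% for the CHR element, 17.5% for the first E2F form and 9.12% for the second. Over all 22862 symbols with 1 window, whether expressed or not, TTTGAA was in 18.5%, so the genes called lower stand near that figure and the other genes compared below it. TTCCCGC was in 4.597% of all windows.

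The ETS core CCGGAAG differed on the side of the genes called higher. It was in 11.96% of their windows, 24.03% of those called lower and 21.98% of those not called, with 9.12% over all windows. At 2-fold the share among genes called higher was 6.45%. The motif GTCACGTG, which resembles the site of the lysosomal regulator TFEB, was in 7.45% of windows of genes called higher, 3.26% of those called lower and 4.63% of the rest. It contains the E-box CACGTG, for which the shares were 12.8%, 10.2% and 10.4%. The TATA box TATAAA was in 9.12% of windows of genes called higher, 6.92% of those called lower and 5.82% of the rest. CCAAT, the box bound by NF-Y, was in 42.2% of the windows of genes called lower and 38.5% of those called higher, and at 2-fold in 47.96% and 37.97%. AP-1 (TGACTCA), FOXO (GTAAACA) and ISRE-type (TTCNNTTTC) motifs were in few windows of any set. At 2-fold TGACTCA was in 4.71% of windows of genes called higher and 2.52% of those called lower, on 19 and 16 windows. GTAAACA was in 1.24% and 2.52%, on 5 and 16 windows, and TTCNNTTTC in 7.69% and 7.70%. The median GC content of the windows was 62.0% for genes called higher, 61.0% for those called lower and 61.7% for the rest.

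**Figure D2:**
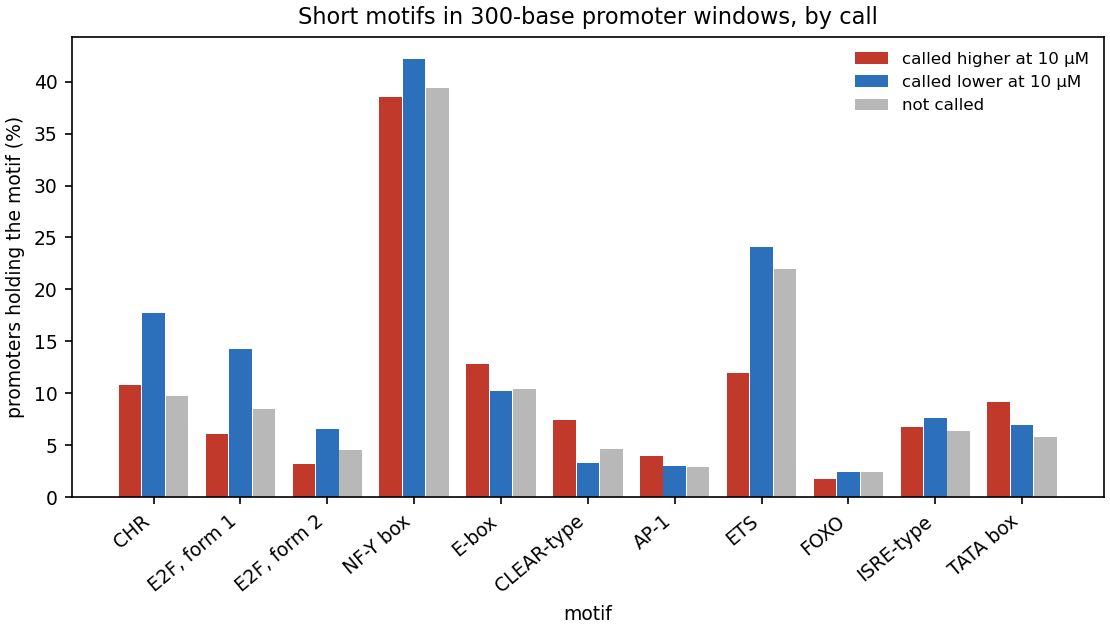
Bars give the percent of 300-base promoter windows that hold each motif, for genes called higher at 10 µM (1020), called lower (1502) and not called (4728). The CHR and first E2F motifs stand highest in genes called lower, and the ETS motif stands lowest in genes called higher.

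The 40 highest folds of named genes were mostly those of proteins outside the cell. By roles assigned after the values were seen, 11 are extracellular matrix genes, 6 secreted signals or their inhibitors, 6 other secreted proteins and 3 cell surface proteins. Fmod (ENSMUSG00000041559), whose product fibromodulin binds collagen fibrils, was at 66.6 and 64.5 FPKM at 10 µM and at 2.12 FPKM in both lanes at 0 µM. Ogn, osteoglycin, a proteoglycan of the same leucine-rich group, was at 387.5 and 384.5 FPKM at 10 µM, against 56.4 and 55.8 FPKM at 0 µM. Further members of that group among the 40 were Prelp (2.69), Aspn (2.55) and Podn (2.44). The integrin ligand Npnt was at 59.5 and 60.5 FPKM against 2.91 and 3.25 FPKM, and Thbs1, thrombospondin 1, was the most abundant of the matrix genes, at 924.9 and 921.1 FPKM against 149.9 and 150.1 FPKM. Tenascin C (Tnc, 2.49), Sparcl1 (2.82), Ccdc80 (3.15) and Cemip (2.72), which takes part in breaking down hyaluronan, completed the matrix genes.

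The promoters of Ogn (chr13:49607765-49608064, plus strand) and Cemip (chr7:84086456-84086755, minus strand) are shown. They are 2 of the 5 that hold TATAAA among the 23 of the 40 with exactly 1 window, and the rest were not searched. This motif and GTCACGTG were those whose share in genes called higher most exceeded that over all genes compared, and none of the 23 of the 40 with 1 window held GTCACGTG. Capitals mark TATAAA on either strand, which in Ogn gives 2 overlapping matches:
Ogn: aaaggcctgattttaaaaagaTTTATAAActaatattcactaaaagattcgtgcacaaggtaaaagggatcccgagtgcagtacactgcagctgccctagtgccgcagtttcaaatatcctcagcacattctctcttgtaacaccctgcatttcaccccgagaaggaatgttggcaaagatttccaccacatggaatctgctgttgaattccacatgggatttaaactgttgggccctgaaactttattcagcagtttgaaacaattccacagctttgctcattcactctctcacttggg
Cemip: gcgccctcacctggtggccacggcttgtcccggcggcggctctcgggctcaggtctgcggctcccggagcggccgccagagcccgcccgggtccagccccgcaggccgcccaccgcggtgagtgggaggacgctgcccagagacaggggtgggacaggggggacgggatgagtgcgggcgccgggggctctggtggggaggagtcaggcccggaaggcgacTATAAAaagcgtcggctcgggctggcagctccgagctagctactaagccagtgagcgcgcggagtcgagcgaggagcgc
The match in Cemip began at −29, where a TATA box usually lies, and the first in Ogn at −229.

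Plxdc1, a transmembrane receptor first found on tumor vessels, had the second highest fold of named genes, with 50.5 and 49.1 FPKM at 10 µM and 1.67 and 1.82 FPKM at 0 µM. Among secreted signals, the chemokine Cxcl12 (2.76), the lymphatic growth factor Vegfd (2.44), the cytokine Il17d (2.67) and the guidance cue Sema3c (2.39) were higher. So were Nbl1 (2.72), an inhibitor of bone morphogenetic proteins, and Agt (2.44), angiotensinogen. Clusterin (Clu) was at 230.9 and 228.3 FPKM at 10 µM, against 24.3 and 25.1 FPKM at 0 µM, and the lipid carriers Apod (2.47) and Apoe (2.43), the vitamin B12 carrier Tcn2 (2.45) and the complement protease C1s1 (3.08) were higher as well. Ptgds, prostaglandin D synthase, was at 11.3 and 11.8 FPKM at 10 µM and at 0.16 and 0.04 FPKM at 0 µM, where the level rests on few fragments.

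Inside the cell, 5 of the 40 were contractile or muscle proteins. Myl9, a regulatory myosin light chain, was at 83.0 and 82.8 FPKM at 10 µM and at 9.69 and 11.7 FPKM at 0 µM. Tmsb4x, the actin-binding peptide thymosin beta 4, was at 1295 and 1272 FPKM against 183.1 and 188.1 FPKM. The small heat shock protein Cryab (3.52), the kinase Dmpk (2.69) and the muscle enzyme Pgam2 (2.70) were the others. Id3, an inhibitor of basic helix-loop-helix factors and a target of BMP signals, was at 85.6 and 83.3 FPKM at 10 µM, against 9.12 and 10.1 FPKM at 0 µM. For each gene of this paragraph, the call already required every lane at 10 µM to lie above every lane at 0 µM.

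**Figure D3:**
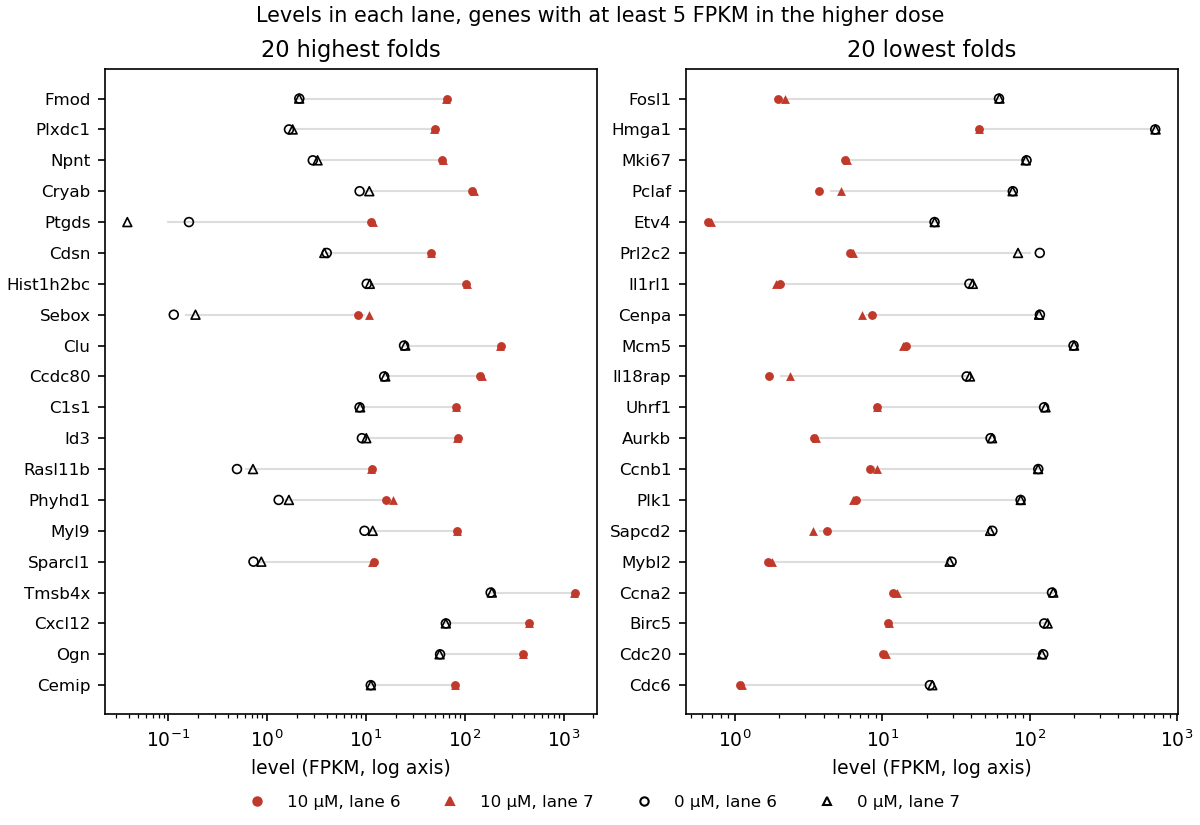
Levels in FPKM on a log axis of the 20 genes with the highest and the 20 with the lowest folds, with filled red marks for the lanes at 10 µM and open marks for those at 0 µM (circles lane 6, triangles lane 7). Lanes of a dose lie close together next to the gap between doses; those of Ptgds at 0 µM (0.16 and 0.04 FPKM) are the farthest apart.

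Levels at 5 µM, from the remaining library of the series, are given for orientation. At 0, 5 and 10 µM, Fosl1 was at 62.1, 3.89 and 2.06 FPKM, Mki67 at 94.6, 13.0 and 5.67 FPKM and Cdc6 at 21.4, 2.45 and 1.10 FPKM. In the same order, Clu was at 24.7, 212.8 and 229.6 FPKM, Fmod at 2.12, 80.3 and 65.6 FPKM and Prelp at 1.68, 24.99 and 16.3 FPKM. Fosl1, Mki67, Cdc6 and Clu thus followed the order of dose, whereas Fmod and Prelp had their highest level at 5 µM.

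Sorted by the difference in FPKM, other genes led. Among named genes that were called, the largest gain was that of mt-Cytb, cytochrome b of the mitochondrial genome, with 5344 and 5336 FPKM at 10 µM against 3167 and 3159 FPKM at 0 µM. It was followed by Cst3, the cysteine protease inhibitor cystatin C (2785 and 2795 FPKM against 631.1 and 631.6 FPKM), and Sparc, osteonectin (2714 and 2742 FPKM against 789.1 and 792.3 FPKM). The ferritin light chain Ftl1 (0.79), heme oxygenase Hmox1 (2.13), the metallothioneins Mt1 (0.64) and Mt2 (0.76) and progranulin Grn (1.52) were also among the 15 largest gains of called genes. Their products handle iron, heme, zinc and lysosomal function. Without the call, mt-Atp8, a subunit of the ATP synthase, gained most (17386 FPKM at 10 µM, 12961 FPKM at 0 µM, 0.42). The genes mt-Co1 (0.32) and mt-Nd2 (0.54) also gained more than Thbs1, Grn or Hmox1 but stayed under 1.5-fold. By contrast, mt-Atp6 was listed at only 6.325 and 4.599 FPKM at 10 µM and at 3.06 and 20.5 FPKM at 0 µM. The level of mt-Atp8 is therefore uncertain, and the division of fragments among mitochondrial genes was not tested. The largest loss of a named gene called was that of the ribosomal protein gene Rps2, with 1707 and 1729 FPKM at 10 µM against 4339 and 4342 FPKM at 0 µM. Of the 15 largest losses of named genes that were called, 6 lay outside the ribosome. They were Gapdh (−1.52), a glycolytic enzyme, the galectin gene Lgals1 (−0.72), the calcium-binding S100a6 (−0.97) and S100a4 (−1.99), the elongation factor Eef1a1 (−0.81) and osteopontin, Spp1 (−1.27). Lgals1 was no longer called with equal sums (−0.51). Gapdh, often used as a reference gene, differed more than 2-fold between these libraries.

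The most abundant genes within 0.1 of no difference were H3f3b, which encodes the replication-independent histone H3.3, at 556.1 and 561.3 FPKM at 10 µM against 585.5 and 594.8 FPKM at 0 µM, and the ubiquitin gene Ubb, at 504.2 and 511.6 FPKM against 512.7 and 518.5 FPKM. Also in this set were Cox6a1, Elob, Ddx5, Gnb2, Flna, Atp5k and Selenof. With equal sums all folds stand about 0.22 higher, so these genes show an equal share of the deposited scale and not an equal amount of RNA.

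A few genes were at or near 0 in one dose only. Serpind1, heparin cofactor II, was at 1.96 and 1.86 FPKM at 10 µM and at 0.05 FPKM in both lanes at 0 µM. Trim63, a ubiquitin ligase of muscle, Mrvi1, a substrate of cGMP-dependent kinase, and Clec3b, tetranectin, lay between 1.04 and 2.01 FPKM at 10 µM and at 0.09 FPKM or less at 0 µM. In the other direction Dmp1, a phosphoprotein of bone matrix, was listed at 0 in both lanes at 10 µM and at 1.36 FPKM in both at 0 µM. The histone gene Hist1h2af was listed at 0 at 10 µM and at 3.72 and 1.67 FPKM at 0 µM, and Btn1a1, butyrophilin, was at 0.02 and 0.07 FPKM against 1.19 and 1.00 FPKM. At these levels Serpind1, Trim63, Mrvi1, Clec3b, Dmp1 and Btn1a1 were no longer called with a pseudocount of 5 FPKM.

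Genes were also grouped into families by the stem of their symbols, which gave 375 families with at least 5 genes compared. A family here is a shared stem and can join genes of different function. The median log2 fold was −0.59 or lower in 38 families and 0.59 or higher in 14. In 5 families every member compared was lower at 10 µM, in 2 every member was higher, and in 34 no member was called. The 12 lowest medians were negative and the 12 highest positive in all 4 lane pairs and under all 3 scalings run. These families were picked by the same medians, which were 0.79 or more in size. The scalings moved folds by about 0.22 at most, so they could change no sign. The lane pairs are repeat runs of the same 2 libraries.

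The lowest median was that of the Cdca genes, named for their expression with the cell cycle, at −2.47 (−2.54 to −2.39), with 7 of 7 lower, against 19.2% of all genes. Their levels at 10 and 0 µM were 10.2 and 111.5 FPKM for Cdca3, 8.49 and 67.8 FPKM for Cdca8, a partner of Aurkb, and 10.4 and 23.9 FPKM for Cdca7l, the least different. The Mcm family followed at −2.24 with 8 of 10 lower. Its exceptions were Mcm3ap (−0.24), which is no helicase subunit, and another member at −0.03. Of 20 Cenp genes 18 were lower (−2.01), and all 5 clamp loader subunits of the Rfc family were lower (−1.44), from Rfc4 at −1.88 to Rfc1 at −0.89. Of 6 Smc genes, 5 were lower (−1.06), led by the condensin subunits Smc2 (−2.23) and Smc4 (−1.65). The Haus genes of the augmin complex, which branches spindle microtubules, had 7 of 8 lower (−0.98).

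The ETS-factor stem Etv was divided. Etv5 was at 2.24 and 2.19 FPKM at 10 µM and at 12.04 and 11.92 FPKM at 0 µM. Etv1 was at 1.54 and 1.64 FPKM against 7.87 and 7.34 FPKM. Etv1, Etv4 and Etv5 form the PEA3 subfamily of factors, which receptor tyrosine kinase signals induce, and all 3 were lower. Etv6 (−0.34) and Etv3 (0.12), of other subfamilies, were not called.

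Other low families serve RNA and proteins. All 7 Cct genes, subunits of the chaperonin that folds actin and tubulin, were lower (median −1.14), from Cct6a (230.2 FPKM at 10 µM, 625.4 FPKM at 0 µM) to Cct2 (106.7 and 184.3 FPKM). The Snrp genes of spliceosomal particles had 5 of 6 lower (−1.06), the Nup genes of the nuclear pore 15 of 18 (−1.01) and the Exosc genes of the RNA exosome 8 of 9 (−0.98, and 5 of 9 with equal sums). The Dynlt family of dynein light chains had 4 of 5 lower and Dynlt3 higher (0.65). Its lower members, Dynlt1a, Dynlt1b, Dynlt1c and Dynlt1f, are near-identical copies whose fragments the counting could have divided among them, so they are no independent genes here.

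The Ypel family had the highest median, 1.27 (1.09 to 1.33), with all 5 members higher, against 15.8% of all genes. Ypel genes encode small zinc-binding proteins of little-known function. Ypel5 was at 54.9 and 54.4 FPKM at 10 µM, against a mean of 18.4 FPKM at 0 µM. Ypel3 was at 55.8 and 57.3 FPKM against 34.6 and 24.6 FPKM, with the lanes of 0 µM farther apart, and Ypel1, Ypel2 and Ypel4 had lower levels, with means of 3.24, 5.31 and 3.34 FPKM at 10 µM. All 8 Pcdhb genes compared, cell adhesion proteins that neurons combine into surface codes, were higher (1.04), at levels from 1.22 to 13.2 FPKM at 10 µM and from 0.27 to 6.50 FPKM at 0 µM. These 8 are 8 of 22 in the files. They lie in 1 cluster and resemble each other in sequence, so they are not independent. Pcdhb9, Pcdhb18, Pcdhb19, Pcdhb20 and Pcdhb22 had means below 1 FPKM at 0 µM and were compared only through their level at 10 µM. The filter thus partly fixed the count of 8 of 8 and the rank of the family.

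Families of the matrix were among the highest. The Adamts proteases, which cut proteoglycans and procollagens, had 7 of 10 higher and Adamts14 lower (median 1.07). Adamts2, which trims procollagen, was at 21.5 and 21.7 FPKM at 10 µM against 4.68 and 4.96 FPKM at 0 µM, and Adamts4, an aggrecanase, at 22.9 and 22.1 FPKM against 6.10 and 6.14 FPKM. The stem Col had 13 of 21 higher and 1 lower (0.87), or 13 of 20 (0.88) without Col4a3bp, which encodes a ceramide carrier and no collagen, with Col12a1 (1.87) and Col8a1 (1.74) among the most different, and Mmp metalloproteases 5 of 8 higher, led by Mmp14 (2.12), and Mmp3 lower (−1.23). The 5 compared genes of 6 fibroblast and meninges markers were all higher as well, with a summed level of 4673 FPKM at 10 µM against 2439 FPKM at 0 µM and the remaining one, Lum, at 0.29 FPKM at 10 µM and 0.08 FPKM at 0 µM. Some of these markers are collagens, and their part in the family results was not tested.

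The remaining high families had varied roles. The Cts family of lysosomal proteases had 5 of 7 higher (0.84), with Ctsd at 1043 and 1037 FPKM at 10 µM against 452.7 and 457.0 FPKM at 0 µM. The Abca lipid transporters had 4 of 7 higher (0.98), among them the cholesterol exporter Abca1, at 30.4 and 29.8 FPKM at 10 µM against 6.94 and 6.73 FPKM at 0 µM. Of the Fzd receptors for WNT ligands, 4 of 6 were higher (0.84), and Fzd5 was the most different, at 16.1 and 15.9 FPKM against 2.64 and 2.52 FPKM. The Tlr receptors of innate immunity had 4 of 5 higher (0.88), led by Tlr6 (1.37), while Tlr5 was at −0.02. The Myl family had 5 of 7 higher (0.84), with Mylk, which is the light chain kinase, at 1.72, and the mt-Nd genes of mitochondrial complex I had 5 of 7 (1.04).

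**Figure D4:**
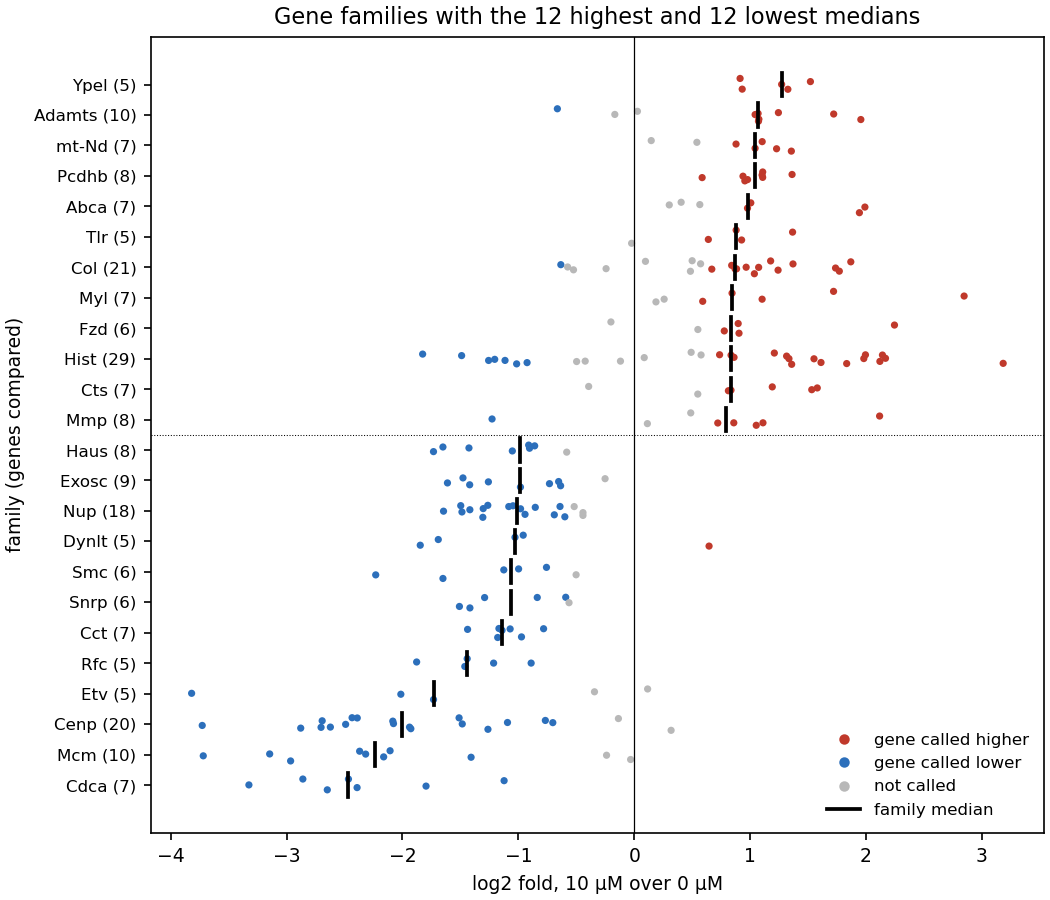
Log2 folds of 10 over 0 µM of every gene compared in the 12 families with the highest medians (above the dotted line) and the 12 with the lowest (below it), with black bars at the medians. All Ypel and Pcdhb genes lie right of 0 and all Cdca, Rfc and Cct genes left of it, while Hist holds genes on both sides.

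Histone genes (stem Hist) were divided, with 16 of 29 higher and 7 lower. Most of these genes are expressed in S phase and their RNA usually lacks a poly(A) tail, although some also make polyadenylated RNA. Hist1h2bc was at 103.5 and 105.0 FPKM at 10 µM against 10.21 and 10.96 FPKM at 0 µM, and the linker histone Hist1h1c at 79.3 and 78.2 FPKM against 17.3 and 16.9 FPKM. The 7 lower genes, such as Hist1h3c (0.75 and 0.83 FPKM against 4.05 and 3.98 FPKM), had means below 5 FPKM at both doses, as had 10 of the 16 higher ones. All 7 lower genes had means below 1 FPKM at 10 µM and were compared only through 0 µM. Many higher ones, among them Hist1h2ac (0.54 FPKM) and Hist2h3c2 (0.28 FPKM), were below 1 FPKM at 0 µM and were compared only through 10 µM. The counts in both directions thus depend on the filter. Histone genes of a class resemble each other closely, so the division of fragments among them is uncertain.

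In 21 families at least 3 members were higher and 3 lower. Of 27 genes of the kinesin stem Kif, 14 (51.9%) were lower and 4 (14.8%) higher, against 19.2% and 15.8% of all genes compared. The share of Kif genes higher was thus near that of genes at large. The 10 lowest are kinesins of the spindle and cytokinesis, from Kif2c (−3.35) to Kif20b (−2.62), whereas the 4 higher ones, Kif21b (1.17), Kif3c (1.11), Kif13b (0.71) and Kif3a (0.64), carry cargo or regulate microtubules outside mitosis. The remaining lower ones were Kif18a (−1.82), Kif26b (−1.12), Kif24 (−0.96) and Kif2a (−0.69), not all of them spindle motors. Cargo motors such as Kif1b (0.41), Kif5b (0.24) and Kif13a (−0.15) were not called. Kif3a, a motor of cilia, was at 49.3 and 49.5 FPKM at 10 µM and at 31.3 FPKM in both lanes at 0 µM. Among 19 Dusp phosphatases, Dusp9 (−1.64), Dusp4 (−1.38), Dusp5 (−1.24), Dusp6 (−1.02) and Dusp2 (−0.87), which act on MAP kinases, were lower. Dusp27 (2.20), Dusp3 (0.72), Dusp8 (0.71), also a MAP kinase phosphatase, and Dusp28 (0.67) were higher. Other MAP kinase phosphatases were not called, with Dusp1 at 0.03, Dusp16 at 0.08, Dusp7 at −0.28 and Dusp10 at −0.48. Of the 19 Dusp genes, 26.3% were lower and 21.1% higher, not far above the shares over all genes.

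The stem Atp was divided into complexes, in subgroups formed after the values were seen. Of 17 genes of the vacuolar proton pump that acidifies lysosomes (Atp6v and Atp6ap), 12 were higher and none lower, with a median of 0.73 and a summed level of 2949 FPKM at 10 µM against 1694 FPKM at 0 µM. Atp6ap1, an accessory subunit, was at 378.8 and 373.7 FPKM against 160.1 and 157.0 FPKM. Of 16 genes of the mitochondrial ATP synthase (Atp5), none was higher and 5 were lower (median −0.26), and with equal sums none was lower and 1 was higher (−0.05). The 13 protein genes of mitochondrial DNA had 6 higher and none lower (0.54). Of 46 Nduf genes, the nuclear genes of complex I and its assembly, 5 were lower and none higher (−0.23). Over all genes compared, 15.8% were higher and 19.2% lower, so Nduf genes were called less often than genes at large. With equal sums the Nduf genes had 2 higher and 2 lower (−0.03).

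Further groups were formed in the same way, to be read beside the 19.2% of all genes compared that were lower. Of 80 cytosolic ribosomal protein genes (Rpl and Rps, without kinases and named pseudogenes), 71 were lower and none higher. Their median was −0.88 and their summed level 53358 FPKM at 10 µM against 98539 FPKM at 0 µM. Of 78 mitochondrial ribosomal protein genes, 28 were lower and none higher (−0.46). Of 36 proteasome genes (Psma to Psmd), 16 were lower and none higher (−0.57), and of 11 tubulins 7 were lower (−1.03). With equal sums the counts lower were 51 for the cytosolic ribosome, 15 for the mitochondrial ribosome, 3 for the proteasome and 6 for tubulins, and all 4 medians stayed negative.

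**Figure D5:**
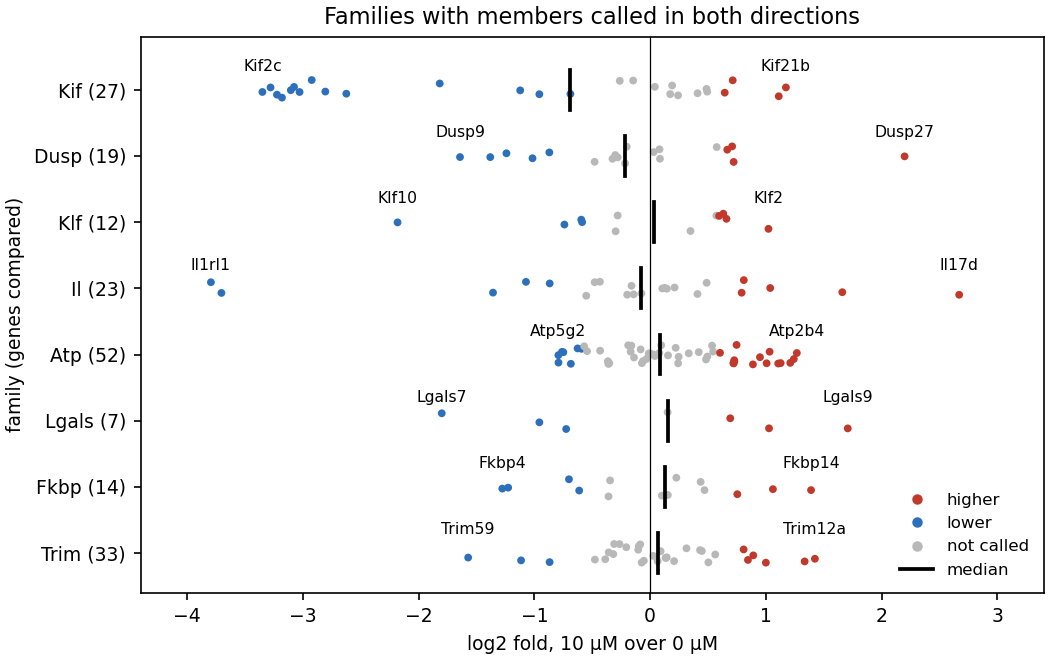
Log2 folds of 10 over 0 µM of the genes compared in 8 of the 21 families with at least 3 members in each direction, with the most extreme gene on each side named and black bars at the medians. Spindle kinesins form the group at the far left of Kif (Kif2c at −3.35), and Il ranges from Il1rl1 (−3.79) to Il17d (2.67).

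Smaller families were split as well. In the Klf family of zinc finger factors, Klf10 (−2.18), induced by TGF-beta, and Klf5 (−0.74), Klf4 (−0.59) and Klf16 (−0.59) were lower, and Klf2 (1.02), Klf11 (0.66), Klf3 (0.63) and Klf6 (0.60) higher. In the Il family, apart from the receptor genes above, Il6ra (−1.36) and Il7 (−1.07) were lower and Il18 (1.66) and Il3ra (1.04) higher. Among galectins and their partners, Lgals7 (−1.80) and Lgals3 (−0.96) were lower and Lgals9 (1.71) and Lgals3bp (1.03) higher. Of 14 Fkbp prolyl isomerase genes, 3 (21.4%) were higher, 4 (28.6%) lower and 7 not called. These shares are not far above the 15.8% higher and 19.2% lower of all genes compared. The cytosolic Hsp90 partners Fkbp4 (−1.28) and Fkbp5 (−1.23) were lower, and Fkbp14 (1.39), Fkbp7 (1.06) and Fkbp9 (0.75) of the endoplasmic reticulum were higher, while Fkbp11, of the same compartment, and the nuclear Fkbp3 were lower (−0.61 and −0.70).

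Neighbouring genes were compared in the order of the GENCODE annotation of GRCm38, which placed 12438 of the genes compared. Among these, 27 runs of at least 4 neighbours were all higher and 31 all lower. The longest run of higher genes had 10 members, 9 histone genes of the Hist1 cluster with Hfe, a regulator of iron uptake (4.56 and 4.24 FPKM at 10 µM, 1.79 and 2.21 FPKM at 0 µM). The second was the Pcdhb run of 8. Both runs hold genes that were compared only through their level at 10 µM, so their length depends on the filter. A run of 7 genes held Rgp1, Npr2, a receptor of C-type natriuretic peptide (1.21), Hint2 and Reck, an inhibitor of metalloproteases (0.78), which share no stem.

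Both of the longest lower runs had 8 members. The first held Rcc1, the exchange factor of the RAN GTPase (9.92 and 10.4 FPKM at 10 µM, 49.97 and 49.01 FPKM at 0 µM), with Gmeb1, Taf12, Trnau1ap and the small nucleolar RNA hosts Snhg12 and Snhg3. The second held Lgals1 with H1f0, a replication-independent linker histone (101.1 and 100.6 FPKM at 10 µM, 358.0 and 357.1 FPKM at 0 µM), Gcat and Eif3l. H1f0 lay opposite to Hist1h1c, the linker histone of the Hist1 cluster. A run of 5 joined Klra4 (−2.51) and Klra2 (−0.62), killer cell lectin-like receptors, with Magohb, Styk1 (−1.89) and the cold-shock protein Ybx3 (−1.78). Klra genes resemble each other, and runs can include overlapping genes whose reads the values cannot tell apart.

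The cells were checked against markers of the labelled and other cell types. Of 10 astrocyte markers only Slc1a3, Gja1 and Sox9 were compared, none of them called, with a summed level of all 10 of 43.7 FPKM at 10 µM and 52.1 FPKM at 0 µM. Gfap, which defines mature astrocytes, was listed at 0 in both lanes at 10 µM and at 0.05 and 0.01 FPKM at 0 µM, and Aqp4 at 0 in all 4 lanes. Slc1a3, a glutamate transporter, was at 13.7 and 13.8 FPKM at 10 µM and at 13.97 and 13.69 FPKM at 0 µM. Of 7 microglia and macrophage markers, 6 were below 0.1 FPKM in all 4 lanes, and no endothelial marker was compared. Of 4 progenitor markers, Nes (−1.75), Sox2 (−1.21) and Cd44 (−0.88) were lower and Vim (0.26) was not called, and the summed level of the list was 1695 FPKM at 10 µM against 1506 FPKM at 0 µM. Of 4 pericyte and smooth muscle markers, only smooth muscle actin, Acta2, was compared. It was higher, at 254.2 and 252.6 FPKM at 10 µM against 62.6 and 63.6 FPKM at 0 µM. Myh11, the smooth muscle myosin, was at 0.08 FPKM at 10 µM and 0.02 FPKM at 0 µM. Rgs5 and Des had lower means at 10 µM, with 0.03 against 0.13 FPKM and 0.60 against 0.64 FPKM. Of 6 neuron markers, Stmn2 was lower (118.3 and 119.5 FPKM at 10 µM, 243.2 and 239.0 FPKM at 0 µM) and Tubb3 was not called (16.33 and 16.38 FPKM at 10 µM, 14.91 and 14.29 FPKM at 0 µM), and Snap25 was listed at 0 in all 4 lanes. The part of these markers in the other results was not tested.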

How the data were processed

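Polyadenylated RNA of cells at 10 and 0 µM SHP099 was sequenced, with 1 library a dose and each library in lanes 6 and 7. The authors deposited 1 FPKM value per gene and lane; alignment is known only from the submitters' processing notes, which list Bowtie 0.12.2 and mm8, while the program behind the FPKM values, and whether it scaled files to each other, is not given in the sources used here. Gene models are later than mm8, so no positions are taken from the files. The lanes were treated as repeat runs of a library and not as replicates, since their labels differ only in the lane.

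Values of the rows of a gene symbol were summed (27 symbols compared had several), a pseudocount of 1 FPKM was added before log2, and the lanes were averaged. FPKM were used as deposited. Levels in FPKM are arithmetic means of the lanes. No test was made between doses. Depth was recovered from the steps between low values, on genes with 1 transcript and with 240 bases subtracted from its length; 97.7% to 98.4% of 1340 to 1435 values a lane were whole within 0.1. In a transcript of 2 kb, 3 fragments correspond to 0.0553 and 0.0548 FPKM in the lanes at 10 µM and to 0.0361 FPKM at 0 µM. Intervals and floors cover counting error only. The call procedure was tested on simulated data with counting noise of lanes only, so that test does not cover variation between libraries.

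Named genes, which exclude gene models without a name, are the called genes with the 40 highest and 40 lowest folds reaching 5 FPKM or more at one dose, the 15 called genes with the largest gains and losses in FPKM, genes at or below 0.1 FPKM in one dose and at or above 1 FPKM in the other, the 10 most abundant within 0.1 of no difference, the families and neighbour runs at the ends of their rankings, and the genes of the labels. Of these, 1 gene is not reported here. The members and lists were chosen with earlier results of these data known. Promoters and their coordinates are from RefSeq on GRCm38.p6; gene types, lengths and order are from GENCODE. Alternatives were pseudocounts of 0.1 and 5 FPKM, 3 scalings, other filters and fold limits, the largest entry of a symbol, single lanes and each lane left out. Python 3.11.15, numpy 2.4.6, pandas 2.3.3 and matplotlib 3.10.9 were used.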

Additional observations from a re-analysis of the deposited data

How the results depend on the processing

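Calls and folds come from 1 library a dose, so culture, day and RNA extraction cannot be told apart from dose, and lane agreement says nothing about them. Low genes are limited by depth, most at 10 µM, which had fewer fragments. No paired analysis was possible because the lanes are repeat runs of 1 library and the result comes from no test. With a pseudocount of 5 FPKM, 1029 genes were higher, all of them called before, since a larger pseudocount can only shrink folds. With every file scaled to the same sum, 2954 were higher and 1576 lower, and the 1576 were all among the 2393. That scaling raises 10 µM against 0 µM, so it could add no lower gene. A 2-fold limit left 733 higher and 995 lower. Leaving out a lane gave 1973 to 2033 higher and 2410 to 2452 lower. Under the other settings (a pseudocount of 0.1, trimmed mean and median scaling, filters, protein-coding genes alone, the largest entry of a symbol, single lanes) both counts stayed within 1.5 times. Of 129 named genes none changed sign in its call under any setting; besides those named above, Cdkn2a passed 1.5-fold in 5 settings (0.61 to 0.80): the 3 scalings, lane 6 alone, and without lane 7 of 0 µM. None of the 24 families at the ends of the ranking changed sign of its median. They were picked as the extremes of these medians, and the scalings were too small to change a sign. Medians moved by more than the lane spread in 20 of 24 with equal sums, 17 with a pseudocount of 5, 15 with no filter, 11 by the mean over members and 10 with a pseudocount of 0.1. The cause of these moves was not tested beyond the construction of each setting.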

Other observations

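Between lanes of 1 library, 57 genes at 10 µM and 49 at 0 µM differed by at least 2-fold, of which 10 and 9 were protein-coding and most others pseudogenes or short RNAs. Zfp276 was at 14.2 and 14.4 FPKM at 10 µM, against 78.7 FPKM in lane 6 and 10.6 FPKM in lane 7 at 0 µM. The mitochondrial gene mt-Atp6 was at 6.325 and 4.599 FPKM at 10 µM and at 3.06 and 20.5 FPKM at 0 µM, and mt-Co2 at 46.2 and 19.1 FPKM at 10 µM and at 28.9 and 49.5 FPKM at 0 µM, far below mt-Cytb. Of 41 genes past 1.5-fold by their means, the lanes were of mixed sign, and these were not called.

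Of 1619 gene models without a name that were compared, 367 were higher and 186 lower at 10 µM, against 1599 higher and 2207 lower of 10833 named genes. With equal sums the counts were 503 higher and 126 lower, against 2420 higher and 1450 lower, so both then had more genes higher.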
